A study of Homo sapiens with 6 samples.

Results

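The genes described are 6 of DNA mismatch repair, taken as every probe set whose single gene symbol in the platform annotation was EXO1, MLH3, MSH3, MSH6, PMS1 or PMS2. They had 132 of the 1411399 probe sets on the array and were 6 of 17841 genes tested. The cells were HCT116, a human cell line from a colorectal carcinoma, and their RNA was measured on Affymetrix human exon arrays, where a gene is read by many probe sets. The groups were cells given Nutlin-3 (2 arrays; the titles say Nutlin 3R), cells given 5-fluorouracil, written 5FU (2 arrays), and controls (2 arrays), collected at 12 h. Nutlin-3 is a small molecule that keeps MDM2 from binding p53, and 5FU is a chemotherapy drug that resembles uracil. All titles give the cells as HCT116 +/+ without saying which gene the signs refer to. The sample labels give the control treatment as none and the series' design text names DMSO. Doses were not stated in the sources used here. Nothing says that replicates were separate cultures, so the spread behind each p-value is that between these samples and may be only technical.

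Mismatch repair removes base mismatches and small loops that replication leaves in new DNA. MSH6 and MSH3 are alternative subunits of the MutS complexes that recognise these errors, MSH6 mainly for base mismatches and MSH3 for larger loops. PMS2, PMS1 and MLH3 are alternative subunits of the MutL complexes, of which the PMS2 form nicks the new strand, and EXO1 is the exonuclease that degrades the nicked strand before resynthesis. The pathway is known in colorectal cancer because its loss gives microsatellite instability, and HCT116 is a mismatch repair-deficient line, which limits it as a model of a working pathway. Mismatch repair proteins are also known to recognise fluorouracil placed in DNA.

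After Nutlin-3, the transcripts of EXO1 and MSH6 fell, to 18.2% and 32.4% of control on the linear scale. In bulk RNA, fewer cells with a transcript and less of it per cell cannot be told apart. The other 4 genes had log2 differences between -0.17 and -0.03, and none of them passed the test. Among them, MSH3 and MLH3 had low signal, and whether a fall could be read from it was not tested. After 5FU no mismatch repair gene passed the test, and the 6 log2 differences lay between -0.06 and 0.39. EXO1 and MSH6 were also lower in Nutlin-3 cells than in 5FU cells when those arrays were compared directly. That comparison uses the same Nutlin-3 arrays. MSH6 was the less firm of these 2 genes (limma adjusted p = 0.0357 against control and 0.0468 against 5FU). It lost its call under more of the alternative fits than EXO1 did.

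Gene values below are log2 values from RMA, the authors' normalization, averaged over a gene's used probe sets. Only probe sets averaging above 4.73 across arrays, the median of these averages over the whole array, were used, which kept 110 of the 132. Values of different genes come from different probes and are not set against each other, except as a rough guide to low signal. A difference is the first group minus the second on this log2 scale, tested with limma over all genes, and "called" means an adjusted p (Benjamini-Hochberg) below 0.05.

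Array medians over all probe sets lay between 4.73 and 4.78, and Pearson correlations between arrays across genes between 0.92 and 0.981. The p53 target CDKN1A, which encodes the kinase inhibitor p21, had values of 10.39 and 10.39 in Nutlin-3 cells, 10.12 and 10.03 in 5FU cells and 8.32 and 8.27 in control cells. The p53 inhibitor MDM2, also a p53 target, had 10.26 and 10.67 in Nutlin-3 cells, 10.04 and 10.31 in 5FU cells and 8.64 and 8.57 in control cells. Of 8 epithelial markers, 7 had means above 4.73 over all their probe sets, among them KRT8 (11.25) and KRT18 (11.02), while the colonic cadherin CDH17 was below it (3.76). Of 7 fibroblast markers, 5 were above it, up to COL1A1 at 7.23, while DCN (3.46) and LUM (3.11) were below. Of 5 blood markers with probe sets, 3 were above it, CD14 (5.39), HBB (5.17) and CD3E (5.05), while PTPRC (3.30) and LYZ (3.46) were below. Their part in the results was not tested. Replicates of a group differed along a direction shared between groups. Replicate 1 minus replicate 2 of Nutlin-3 correlated at -0.565 with that of control and at 0.634 with that of 5FU (Pearson, across 17841 genes, which are not independent). All 6 mismatch repair genes lay along it, with control replicate 1 above replicate 2 and, in both drug groups, replicate 2 above replicate 1, as did 38.6% of all genes. Its part in the results was not tested.

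**Figure D1:**
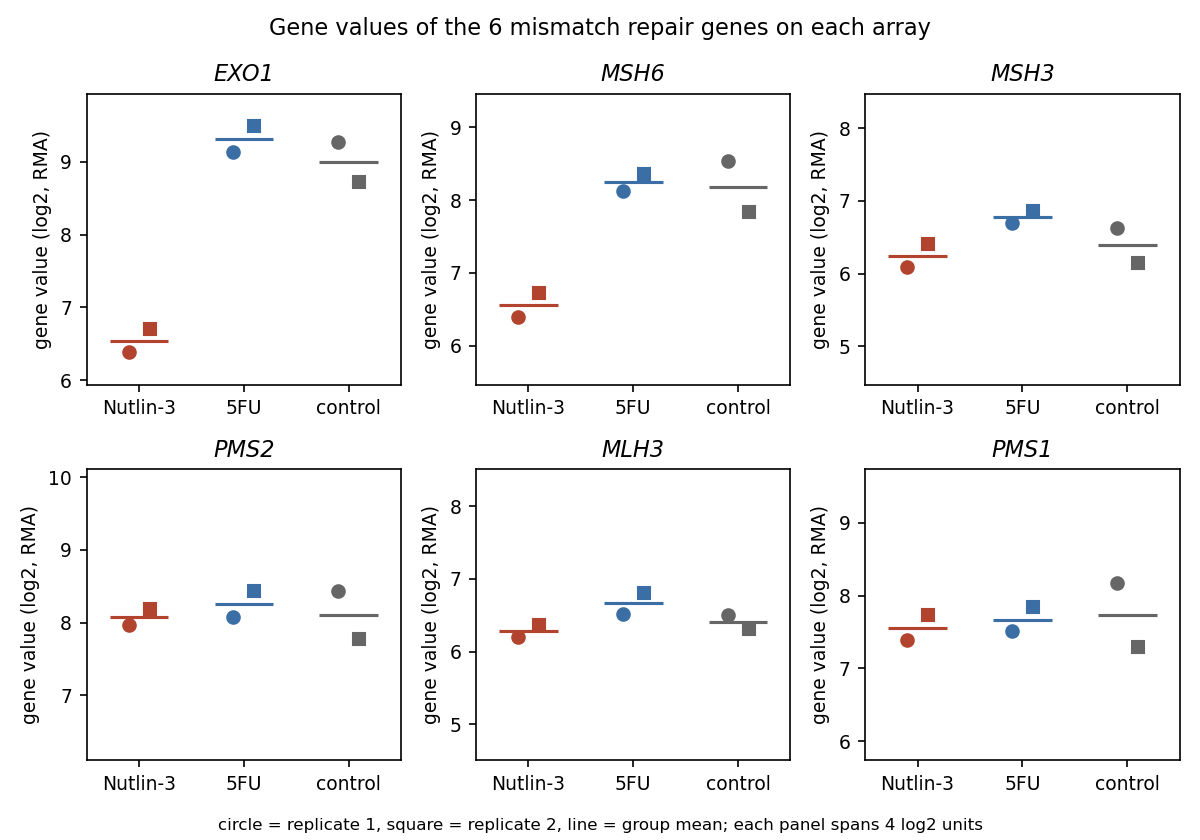
Gene value (log2, RMA) of each mismatch repair gene on each of the 6 arrays, with circles for replicate 1, squares for replicate 2 and lines for group means; every panel spans the same log2 range. EXO1 and MSH6 in Nutlin-3 cells lie below all 5FU and control arrays, at 6.39 to 6.73, while the groups of PMS2 and PMS1 overlap.

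EXO1 had values of 6.39 and 6.70 in Nutlin-3 cells, 9.13 and 9.49 in 5FU cells, and 9.28 and 8.72 in control cells. Both Nutlin-3 arrays were below all 4 other arrays, and the 5FU and control arrays overlapped. Nutlin-3 against control gave a log2 difference of -2.45 (SE 0.23, 95% interval -3.0 to -1.91, limma adjusted p = 0.00982), a 5.48-fold fall. In that comparison 2 of the 6 mismatch repair genes were called, both lower, against 1.22% of all genes called and 0.858% called lower. The same 2 were the genes whose Nutlin-3 and control arrays did not overlap, against 18% of genes lower without overlap, and all 6 differences were negative, against 49.9% of genes. Only 3 of the 6 were negative when either Nutlin-3 replicate 1 or control replicate 1 was left out. By size of fall EXO1 ranked 5 of 17841 genes. 5FU against control gave 0.31 (95% interval -0.24 to 0.85, adjusted p = 0.774). Nutlin-3 against 5FU, the direct test of the difference between the drugs, gave -2.76 (95% interval -3.31 to -2.22, adjusted p = 0.00944), 6.79-fold lower in Nutlin-3 cells. With replicate number as a block in limma, neither Nutlin-3 difference was called (adjusted p = 0.0637 against control and 0.0962 against 5FU). The labels do not say that these numbers pair the arrays. Without control replicate 1 the difference of Nutlin-3 from control was -2.18 and lost its call (adjusted p = 0.0553). The difference from 5FU lost its call without Nutlin-3 replicate 1 (-2.61, adjusted p = 0.0528) or 5FU replicate 2 (-2.58, adjusted p = 0.0667).

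The fall of EXO1 was seen along the whole set of its probe sets. All 18 were used, and all 18 were lower in Nutlin-3 than in control cells without overlap of the arrays, against 15% of all 705699 probe sets tested. Their log2 differences lay between -3.01 and -1.76 with a median of -2.58, and 18 of 18 were lower by at least 1 log2 unit, against 1.66% of probe sets. Probe sets of a gene are read from the same RNA on the same arrays and are not replicates. After 5FU, 16 of the 18 were above control, with a range of -0.08 to 0.72 and a median of 0.31. No single probe set of any gene passed adjustment in either comparison with control, where limma called 0 of 705699, while all 18 of EXO1 were lower at an unadjusted p below 0.05 for Nutlin-3 against control, against 3.26% of probe sets. For Nutlin-3 against 5FU, 10 probe sets passed (0.00142%), none of them from these 6 genes.

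MSH6, the mismatch-binding subunit, had values of 6.39 and 6.73 in Nutlin-3 cells, 8.13 and 8.36 in 5FU cells, and 8.54 and 7.83 in control cells. The Nutlin-3 arrays were again below all 4 others, and the control arrays lay on either side of both 5FU arrays. Nutlin-3 against control gave -1.63 (SE 0.25, 95% interval -2.22 to -1.03, adjusted p = 0.0357), a 3.09-fold fall, and Nutlin-3 against 5FU gave -1.69 (95% interval -2.29 to -1.09, adjusted p = 0.0468). For 5FU against control the difference was 0.06 (95% interval -0.53 to 0.66, adjusted p = 0.981). With replicate number as a block in limma, neither Nutlin-3 difference was called (adjusted p = 0.158 against control). The call against control was lost without control replicate 1 (-1.27, adjusted p = 0.123), Nutlin-3 replicate 1 (-1.46, 0.159), Nutlin-3 replicate 2 (-1.80, 0.0609) or either 5FU array (-1.63, 0.0513), with all probe sets (-1.49, 0.059) and with the median of probe sets (-1.66, 0.0828). The call against 5FU was lost without either Nutlin-3 array (-1.52 without replicate 1 and -1.86 without replicate 2) or either 5FU array (-1.81 and -1.57), with all probe sets (-1.54), with the median of probe sets (-1.72) and with trend and robust variances (-1.69, adjusted p = 0.0513).

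Of 18 MSH6 probe sets, 16 were used. Of these, 15 were lower in Nutlin-3 than in control cells without overlap, against 15% of all probe sets tested. By at least 1 log2 unit 14 were lower, against 1.66% of all. As for EXO1, probe sets of the gene are not replicates. The differences ran from -2.77 to 0.04 with a median of -1.70. The exception was probe set 2481155, which had values of 5.83 and 5.72 in Nutlin-3 cells, 6.13 and 5.52 in 5FU cells, and 5.65 and 5.82 in control cells. It did not separate the groups, and where it lies in the gene is not known here. The steepest, probe set 2481162, had 3.91 and 6.13 in Nutlin-3 cells, 7.48 and 8.24 in 5FU cells, and 8.33 and 7.25 in control cells, so its Nutlin-3 replicates differed from each other by more than 2 log2 units. After 5FU the 16 differences lay between -0.18 and 0.57, with 9 above control and 7 below.

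**Figure D2:**
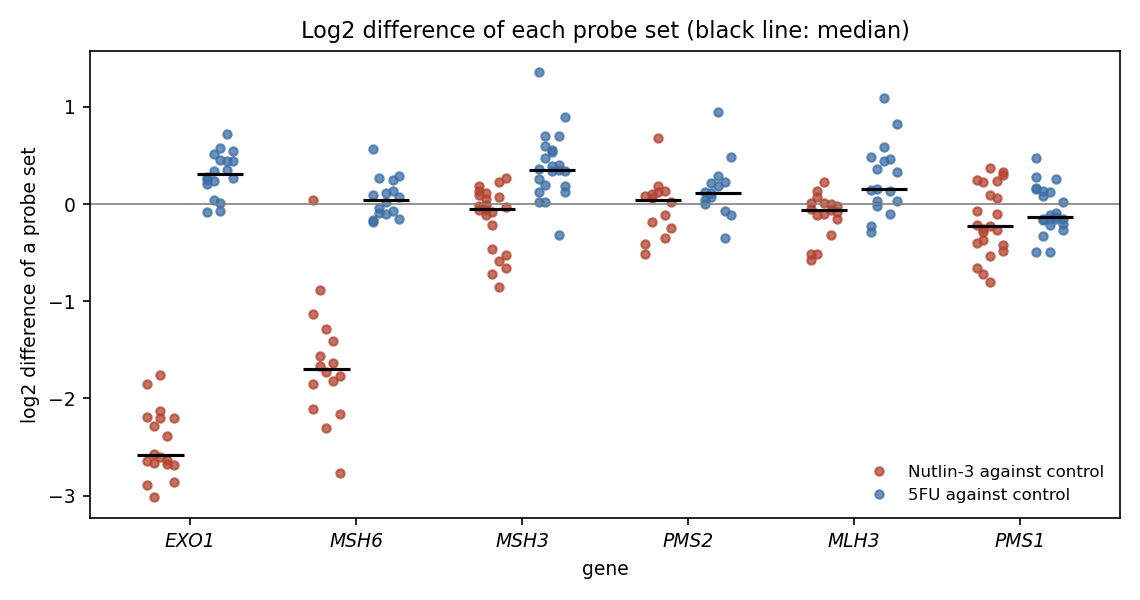
Log2 difference from control of every used probe set of the 6 genes, red for Nutlin-3 and blue for 5FU, with black lines at the medians. All 18 EXO1 probe sets lie between -3.01 and -1.76 after Nutlin-3, and 15 of 16 MSH6 probe sets lie below 0, while most probe sets of the other 4 genes stay within 1 log2 unit of control.

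The promoters of these genes are shown because EXO1 and MSH6 moved together and are often described as targets of E2F, the transcription factors that drive S-phase genes. Each window holds 250 bases before and 50 after a start site, from RefSeq on GRCh38.p14, written 5′ to 3′ on the gene's strand, and for genes with several windows the first listed was taken. The windows are chr1:241847954-241848253 for EXO1, chr2:47782895-47783194 for MSH6 and chr5:80654402-80654701 for MSH3, all on the plus strand. Capitals mark matches on either strand to any of 4 spellings of the E2F motif, TTTCGCGC, TTTGGCGC, TTTCCCGC and TTTGCCGC.
EXO1: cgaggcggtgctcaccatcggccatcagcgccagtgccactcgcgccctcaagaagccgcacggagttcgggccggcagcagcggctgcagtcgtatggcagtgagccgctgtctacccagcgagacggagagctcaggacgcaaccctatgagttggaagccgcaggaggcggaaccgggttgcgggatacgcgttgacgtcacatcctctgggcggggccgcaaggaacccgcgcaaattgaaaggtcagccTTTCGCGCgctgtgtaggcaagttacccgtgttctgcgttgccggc
MSH6: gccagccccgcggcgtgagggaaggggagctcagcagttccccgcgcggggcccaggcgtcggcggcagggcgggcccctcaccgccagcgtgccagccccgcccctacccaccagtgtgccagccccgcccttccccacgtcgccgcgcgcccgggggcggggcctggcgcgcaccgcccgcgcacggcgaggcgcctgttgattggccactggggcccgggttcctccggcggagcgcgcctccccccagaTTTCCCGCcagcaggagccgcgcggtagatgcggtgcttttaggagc
MSH3: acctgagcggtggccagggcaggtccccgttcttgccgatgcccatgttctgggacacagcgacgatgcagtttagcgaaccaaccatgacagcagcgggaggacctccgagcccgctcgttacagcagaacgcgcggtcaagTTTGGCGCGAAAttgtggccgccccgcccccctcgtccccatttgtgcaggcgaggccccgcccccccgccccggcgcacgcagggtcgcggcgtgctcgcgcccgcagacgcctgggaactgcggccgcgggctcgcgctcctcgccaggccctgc

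The EXO1 window held TTTCGCGC starting at base 5 after the start site, and the MSH6 window TTTCCCGC at base 4. The MSH3 window held 2 overlapping matches on opposite strands, TTTGGCGC from base -107 and TTTCGCGC read on the other strand from base -103. The PMS2 window held TTTGCCGC at base -43, and the MLH3 and PMS1 windows held none of these spellings. Of all 35116 RefSeq windows of this length, 3.31% held a match. MSH3 and PMS2, whose windows held a match, had no call after Nutlin-3. The matches describe the letters of these windows and were not tested as binding sites.

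MSH3, the loop-binding alternative to MSH6, had values of 6.09 and 6.40 in Nutlin-3 cells, 6.70 and 6.86 in 5FU cells, and 6.63 and 6.15 in control cells. Both 5FU arrays were above the other 4, and Nutlin-3 and control overlapped. Nutlin-3 against control gave -0.15 (95% interval -0.62 to 0.33, adjusted p = 0.911). That interval does not reach the -1.63 of MSH6, but it rests on the spread between these few arrays. When 1 array was left out the difference ran from -0.39 to 0.10. The signal of MSH3 was also low, with a control mean of 6.39. Over used probe sets, the 4 blood markers tested had control means of 6.48 (PTPRC) to 6.78 (HBB). Whether a fall could be read from so low a level was not tested. 5FU against control gave 0.39 (95% interval -0.08 to 0.87, adjusted p = 0.59). Limma called 0 of the 6 mismatch repair genes in that comparison, against 0.448% of all genes, and 0 of the 6 had an unadjusted p below 0.05, against 10.7% of all genes. Of 22 used MSH3 probe sets, 21 were above control after 5FU, 11 of them without overlap, against 17.6% of all probe sets higher without overlap. These probe sets share the same arrays and are not replicates, so the counts add no test to that of the gene. The highest, probe set 2817890, had 8.70 and 8.48 in 5FU cells against 7.85 and 6.61 in control cells. The 5FU difference was 0.63 without control replicate 1 and 0.15 without control replicate 2.

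For Nutlin-3 against 5FU, MSH3 gave -0.54 (95% interval -1.02 to -0.06, unadjusted p = 0.032, adjusted p = 0.32), and did not pass. In that comparison 2 of the 6 genes were called, EXO1 and MSH6, against 0.633% of all genes and 0.572% called lower, and all 6 differences were negative, against 50.8% of genes. At an unadjusted p below 0.05 there were 4 of the 6, with MSH3 and MLH3 the others, against 13.3% of genes. That count was 2 without Nutlin-3 replicate 1 or 5FU replicate 2 and 3 when any other array was left out. Those 4 were also lower in Nutlin-3 cells without overlap of the arrays, against 25.2% of genes. Of 22 MSH3 probe sets 20 were lower in Nutlin-3 than in 5FU cells, 12 of them without overlap, against 18% of all probe sets. Again these are not replicates.

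Among the MutL genes, PMS2, the subunit that nicks the new strand, had values of 7.96 and 8.19 in Nutlin-3 cells, 8.08 and 8.44 in 5FU cells, and 8.44 and 7.77 in control cells. The groups overlapped, and the control arrays differed from each other more than any group means did. The difference was -0.03 for Nutlin-3 against control (95% interval -0.61 to 0.55, adjusted p = 0.99) and 0.16 for 5FU against control (95% interval -0.42 to 0.73, adjusted p = 0.937). Of 14 PMS2 probe sets, 6 were below and 8 above control after Nutlin-3, with a range of -0.51 to 0.68. PMS2 has many near-identical pseudogene copies and its signal is uncertain to that extent. A further 8 probe sets, annotated to both PMS2 and its copy PMS2CL and left out here, had a median log2 difference of -0.09 for Nutlin-3 against control and 0.01 for 5FU against control.

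MLH3, a MutL subunit known for its part in meiotic crossing-over, had values of 6.20 and 6.37 in Nutlin-3 cells, 6.52 and 6.81 in 5FU cells, and 6.50 and 6.31 in control cells. The 5FU arrays were the 2 highest, and Nutlin-3 and control overlapped. With MSH3, it was 1 of 2 mismatch repair genes higher in 5FU than in control cells without overlap, against 20% of genes. Nutlin-3 against control gave -0.12 (95% interval -0.50 to 0.26, adjusted p = 0.906) and 5FU against control 0.26 (95% interval -0.12 to 0.64, adjusted p = 0.679). The control mean of MLH3, 6.41, was also below those of the blood markers tested, and whether a fall could be read from it was not tested. Nutlin-3 against 5FU gave -0.38 (unadjusted p = 0.0486, adjusted p = 0.371). Its 17 used probe sets differed from control by -0.58 to 0.23 after Nutlin-3 and by -0.29 to 1.09 after 5FU.

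PMS1, a MutL subunit with little known activity in repair, had values of 7.39 and 7.74 in Nutlin-3 cells, 7.51 and 7.84 in 5FU cells, and 8.17 and 7.30 in control cells. All 4 drug arrays lay between the 2 control arrays, which differed by 0.87, the widest replicate gap among the 6 genes. Nutlin-3 against control gave -0.17 (95% interval -0.86 to 0.52, adjusted p = 0.936) and 5FU against control -0.06 (95% interval -0.75 to 0.63, adjusted p = 0.986). These intervals, the widest of the 6 genes, reach down to -0.86 after Nutlin-3 and up to 0.63 after 5FU. Its direction after Nutlin-3 turned without control replicate 1 (0.26) or Nutlin-3 replicate 1 (0.01). PMS1 has the most used probe sets of the 6 genes, 23, of which 15 were below control after Nutlin-3 and 14 after 5FU.

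**Figure D3:**
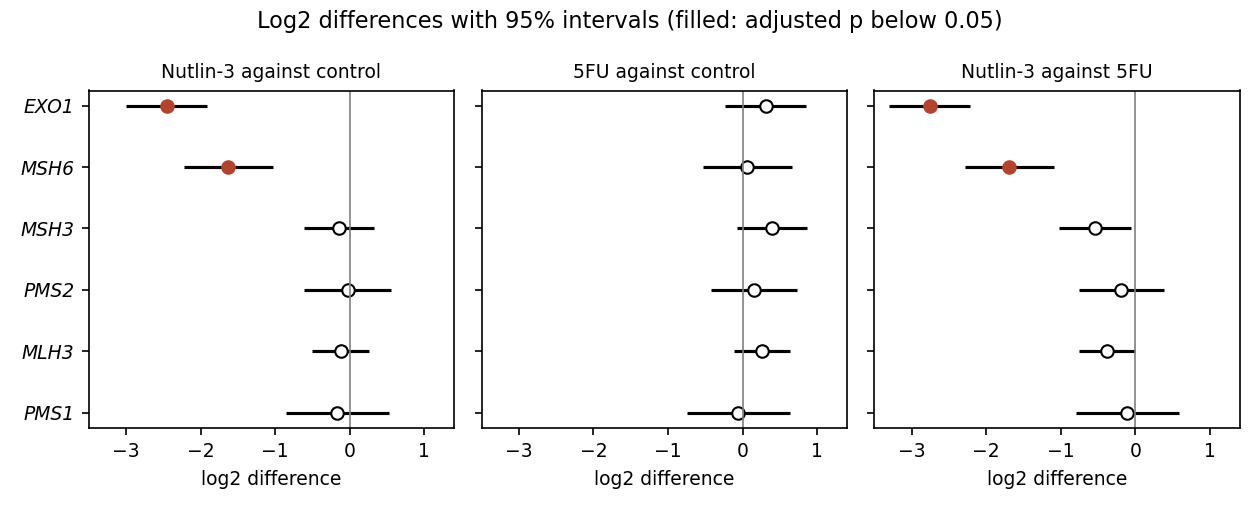
Log2 difference (point) with its 95% interval (line) for each gene in the 3 comparisons, filled where the adjusted p was below 0.05. EXO1 (-2.45 and -2.76) and MSH6 (-1.63 and -1.69) are filled in both comparisons of Nutlin-3, and no gene is filled for 5FU against control.

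Over the 6 arrays the pattern of MSH6 was close to that of EXO1 (Pearson r = 0.988, given as a description with no test), and MSH6 ranked 30 of 16874 genes in likeness to EXO1. The arrays share their treatment and the replicate direction above, and many genes correlated highly. Genes with at least 3 used probe sets most like EXO1 were FEN1, the flap endonuclease (r = 0.9981), the licensing factor CDC6 (0.9979), DTL, a substrate receptor of an S-phase ubiquitin ligase (0.9977), the centromere gene CENPO (0.9974) and the phosphatase CDC25A (0.997). Most like MSH6 were SKP2, an F-box ubiquitin ligase subunit (0.9996), UBE2T, a ubiquitin-conjugating enzyme (0.999), and FBXO5, an inhibitor of the anaphase-promoting complex (0.9977). MSH3 and MLH3 correlated at 0.938 and PMS2 and PMS1 at 0.932, and EXO1 with PMS2 at 0.389 and with PMS1 at 0.371. MSH3 was nearest to SYNJ2 (0.9987), GRHL1 and RYBP, MLH3 to HOXA5 (0.9964), NRBF2 and CSGALNACT2, PMS2 to MRPS30 (0.9989), SRPK2 and MRPS27, and PMS1 to DCUN1D4 (0.9983), SSB and CCDC125.

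EXO1 belongs to the RAD2 family of structure-specific nucleases with FEN1, GEN1 and ERCC5. FEN1 had 7.81 and 7.89 in Nutlin-3 cells, 9.25 and 9.44 in 5FU cells, and 9.24 and 9.04 in control cells. FEN1 fell 2.45-fold after Nutlin-3 (-1.29, adjusted p = 0.0136), was lower than in 5FU cells (-1.50, adjusted p = 0.0147), and differed by 0.21 after 5FU (adjusted p = 0.753). It was the 1 of the 3 relatives called, where 0.858% of all genes were called lower against control and 0.572% against 5FU. GEN1, which cuts Holliday junctions, differed by -1.10 (adjusted p = 0.122) and ERCC5, the nucleotide excision repair nuclease, by 0.40 (adjusted p = 0.661) after Nutlin-3. Without control replicate 2 the count of relatives called was 2. The call of FEN1 against control was lost when either Nutlin-3 replicate 1 (-1.25) or control replicate 1 (-1.19) was left out, and against 5FU without Nutlin-3 replicate 1 (-1.46) or either 5FU array (-1.60 and -1.40).

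Once EXO1 has cut back the strand, mismatch repair uses the replication clamp PCNA, its loader RFC, the single-strand binder RPA, DNA polymerase delta and a ligase. The list of 15 partners held 14 genes of these kinds and HMGB1, a chromatin protein known as an accessory factor of the reaction. This list was chosen with earlier results of these data known. Of the 15, 4 fell after Nutlin-3 and 0 rose, against 0.858% of all genes called lower. The median log2 difference was -0.54, where that of all genes was 0.001. The 4 were POLD3, a subunit of polymerase delta (-1.90, adjusted p = 0.0099), and the loader subunits RFC4 (-1.55, 0.0375), RFC5 (-1.39, 0.0199) and RFC3 (-1.36, 0.0386). For Nutlin-3 against 5FU, which shares the Nutlin-3 arrays, these 4 were called as well, against 0.572% of all genes called lower. They differed by -1.81 for POLD3, -1.60 for RFC4, -1.47 for RFC3 and -1.31 for RFC5. POLD3 had 5.55 and 5.91 in Nutlin-3 cells, 7.37 and 7.72 in 5FU cells, and 7.72 and 7.54 in control cells. None of the 15 was called for 5FU against control by limma, against 0.448% of all genes, and the median was 0.10. Only 1 of the 15 had an unadjusted p below 0.05, against 10.7% of all genes. That gene was PCNA, with 8.45 and 9.16 in Nutlin-3 cells, 9.54 and 9.92 in 5FU cells, and 9.09 and 8.91 in control cells, a difference of 0.73 after 5FU (unadjusted p = 0.0241, adjusted p = 0.368) and -0.20 after Nutlin-3 (adjusted p = 0.901). LIG1, the ligase, differed by -0.14 after Nutlin-3 and -0.07 after 5FU.

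The count of 4 partners for Nutlin-3 against control was 0 when either Nutlin-3 replicate 1 or control replicate 1 was left out, 1 without control replicate 2 and 3 without either 5FU array, with medians between -0.74 and -0.42. Against 5FU it was 0 without Nutlin-3 replicate 1 or either 5FU array and 1 without Nutlin-3 replicate 2. It was 4 without either control array, but RFC3 was not among them (adjusted p = 0.0621) and lost its call whichever of the 6 arrays was left out.

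**Figure D4:**
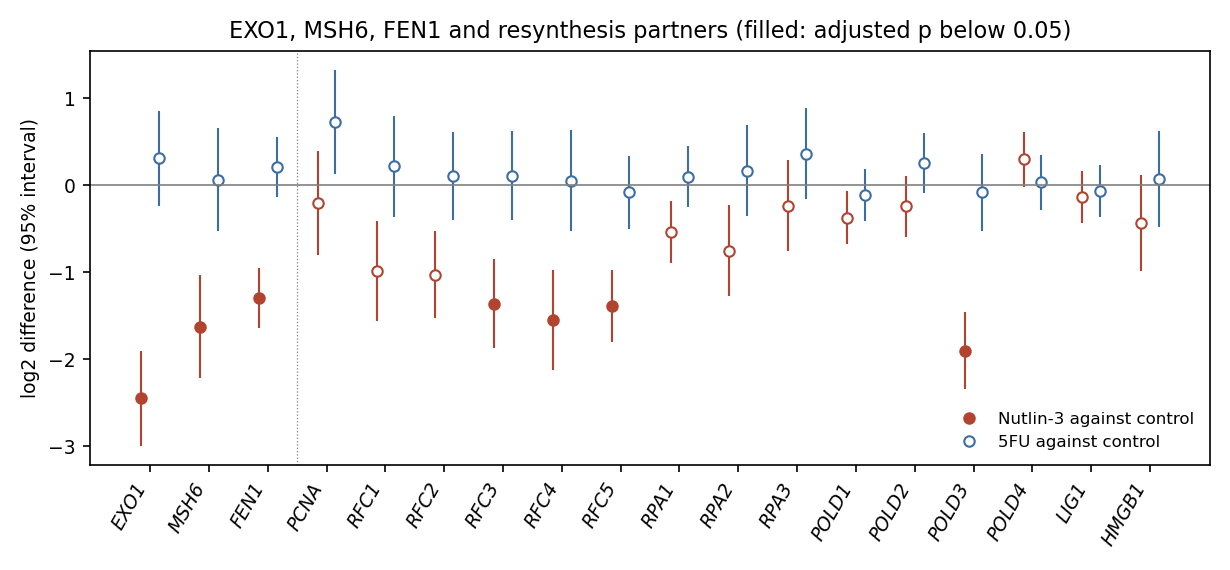
Log2 difference from control with its 95% interval for EXO1, MSH6 and FEN1 (left of the dotted line) and the 15 partners, red for Nutlin-3 and blue for 5FU, filled where the adjusted p was below 0.05. After Nutlin-3 the filled partners are POLD3 (-1.90), RFC4 (-1.55), RFC5 (-1.39) and RFC3 (-1.36), and no point is filled for 5FU.

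Of 8 measured meiotic and accessory genes, 2 fell after Nutlin-3, against 0.858% of all genes called lower. They were MCM8, a helicase subunit (-1.42, adjusted p = 0.0178), and WDHD1, a replication fork protein (-1.61, adjusted p = 0.0388). The median of the list was -0.27. MCM8 was also lower than in 5FU cells (-1.30, adjusted p = 0.0365), as was MSH4, a meiotic MutS homologue (-1.06, adjusted p = 0.0442). In that comparison 0.572% of all genes were called lower. MSH4 rested on 2 of its 24 probe sets, with 5.70 and 5.75 in Nutlin-3 cells, 6.86 and 6.72 in 5FU cells, and 6.14 and 5.83 in control cells. With all 24 probe sets its difference was -0.52 and not called (adjusted p = 0.27). For Nutlin-3 against control the count of 2 became 0 when either Nutlin-3 replicate 1 or control replicate 1 was left out and 1 without control replicate 2, and 0 against 5FU without either Nutlin-3 array or either 5FU array.

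For comparison with EXO1 and MSH6, of 24 measured S-phase genes known as E2F targets 18 fell after Nutlin-3 and 0 rose. Their median was -1.29, and 0.858% of all genes were called lower. The list was chosen with earlier results of these data known, so the count describes it and tests nothing. After 5FU limma called 0 of the 24, against 0.448% of all genes, and their median was 0.04. At an unadjusted p below 0.05 there were 4 of the 24, against 10.7% of all genes. Of these 4, CCNE2 was higher than control (1.54, adjusted p = 0.0927), while MCM3 (-0.65), UHRF1 (-0.39) and E2F1 (-0.39) were lower. Nutlin-3 against 5FU called 17, all lower, against 0.572% of all genes called lower. The steepest of the 24 for Nutlin-3 against control was the cyclin gene CCNE2 (-3.0). EXO1 at -2.45 was close to DTL (-2.47), MCM10 (-2.51) and CLSPN (-2.36), genes of replication and its checkpoint, after Nutlin-3, and MSH6 at -1.63 was between these and the list's median. Under leave-one-out the count against control was 0 without control replicate 1, 5 without Nutlin-3 replicate 1 and 13 to 16 otherwise, with all 24 below control each time. Against 5FU it was 3 without Nutlin-3 replicate 1, 7 without replicate 2, 6 without 5FU replicate 1, 1 without 5FU replicate 2 and 15 without either control array.

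Neighbouring genes, chosen after the data were seen, were not called. FBXO11, whose end overlaps that of MSH6 in RefSeq, differed by -0.23 for Nutlin-3 against control (95% interval -1.01 to 0.56, adjusted p = 0.919). ORMDL1, which starts beside PMS1 on the other strand, differed by -0.16 (95% interval -0.97 to 0.64, adjusted p = 0.951), close to the -0.17 of PMS1. The other comparisons were less alike. ORMDL1 differed by 0.54 and PMS1 by -0.06 for 5FU against control, and by -0.71 and -0.11 for Nutlin-3 against 5FU.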

How the data were processed

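The authors deposited log2 values from RMA, 1 per probe set and array. The name RMA comes from the submitters' processing notes, with no version or settings in the sources used here. These values have no detection call, and precision is limited by the number of arrays. Gene names came from the platform annotation, where 357604 probe sets had 1 symbol, 15322 several (not used) and 1038473 none. Of 19560 symbols, 16472 were current in RefSeq (GRCh38.p14), 2966 were replaced by the current symbol of their only synonym match and 122 kept. A gene's value was the mean log2 value of its used probe sets, at least 2. Groups came from the sample titles. The 3 groups were fitted together in limma 3.58.1 under R 4.3.3 (lmFit, eBayes, 3 residual degrees of freedom and no block), with Benjamini-Hochberg adjustment over 17841 genes. An exact two-sided permutation test of 2 arrays against 2 cannot go below 0.333. On simulated Nutlin-3 against control data for 17841 genes with independent noise, the fit found 49.2% of changes of 2-fold and 95.7% of changes of 4-fold. Of its calls, 5.17% were false. The real replicates differed along a direction shared between groups, which the simulation lacked, so these rates need not hold for these data. The members and lists were chosen with earlier results of these data known. Named were all 6 members, CDKN1A, MDM2, FEN1, PCNA and LIG1 as fixed names, up to 4 called genes per list and comparison, and the genes most like each member. The lists were repair partners, meiotic and accessory genes, RAD2 family nucleases, S-phase E2F targets, and epithelial, fibroblast and blood markers; no marker was called in any comparison. Alternatives changed the probe-set filter, the summary, the variance model, the scaling, the block and the arrays included. Promoters were searched as letters on both strands.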

Additional observations from a re-analysis of the deposited data

How the results depend on the processing

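With 2 arrays a group, calls depended on the processing more than directions did. EXO1 was called lower for Nutlin-3 against control under 10 of 12 alternatives (log2 differences -2.73 to -2.18) and against 5FU under 9 of 12 (-2.95 to -2.58); MSH6 was called under 4 of 12 in each (-1.98 to -1.27 and -1.86 to -1.52). The cause was not tested. Of the 6 mismatch repair genes, the number called for Nutlin-3 against control was 1 with all probe sets or the median of probe sets, and 0 to 2 when 1 array was left out. For Nutlin-3 against 5FU it was 1 with all probe sets, the median of probe sets or trend and robust variances, and 0 to 2 when 1 array was left out. It was 0 for 5FU against control in every fit.

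The labels tie no replicate number to a shared culture or day. Same-numbered deviations correlated at -0.565 between Nutlin-3 and control, at -0.525 between 5FU and control and at 0.634 between the drugs, so the numbers were not taken to pair the arrays across all 3 groups. With the replicate block, 0 mismatch repair genes were called in each comparison (for Nutlin-3 against control and against 5FU, adjusted p = 0.0637 and 0.0962 for EXO1 and 0.158 and 0.211 for MSH6), and the counts over all genes were 2, 1 and 0 for Nutlin-3 against control, 5FU against control and Nutlin-3 against 5FU, where the fit without it gave 217, 80 and 113. With a crossed pairing chosen after seeing the data they were 1788, 1882 and 2821, with 4 mismatch repair genes called for Nutlin-3 against 5FU.

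In the same order of comparisons, upper-quartile probe sets gave 380, 151 and 234 genes and arrays centred on their medians 381, 177 and 297. The median of probe sets gave 39 for 5FU against control and 69 for Nutlin-3 against 5FU, and all probe sets gave 69 for the last. Leaving out 1 array gave 5 to 149, 1 to 63 and 3 to 104. Single probe sets called were 1531, 167 and 630 among the upper quartile, against 0, 0 and 10.

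Directions turned for small differences. With all probe sets, Nutlin-3 against control was 0.02 for MSH3 and 0.06 for MSH4, and with the median of probe sets 5FU against control was 0.03 for PMS1. Leaving out 1 array turned Nutlin-3 against control for MSH3 (-0.39 to 0.10), PMS2 (-0.36 to 0.30), PMS1 (-0.61 to 0.26) and PCNA (-0.56 to 0.16), and Nutlin-3 against 5FU for PMS1 (-0.29 to 0.07). For 5FU against control it turned MSH6 (-0.29 to 0.42), PMS2 (-0.18 to 0.49), PMS1 (-0.49 to 0.38), CLSPN (-0.39 to 0.54), MCM8 (-0.26 to 0.01), POLD3 (-0.26 to 0.09), RFC4 (-0.22 to 0.33), RFC3 (-0.11 to 0.33), RFC5 (-0.25 to 0.09) and MCM10 (-0.29 to 0.07). The settings of RMA itself were not varied.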
